A study of Mus musculus with 188 samples.

Results

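Pluripotency of mouse embryonic stem cells (mESCs) rests on a small network of transcription factors, and the loci of 8 of its core genes are described here in single cells caught during DNA replication. The genes are Pou5f1, Sox2, Nanog, Esrrb, Klf4, Tfcp2l1, Prdm14 and Zfp42. A locus was the gene body with 100 kb on either side in the mm10 build. All 50 kb bins that touched this stretch were taken, which gave 45 bins among the 45112 autosomal bins with usable values, and none of the 45 was lost to missing values.

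Single S-phase cells were sorted by DNA content after DAPI staining, and their genomes were amplified and sequenced at low coverage, so that replicated DNA shows as a higher copy number within a cell. H129-2 is a haploid mESC line of strain 129, and F121-9 is a diploid line labelled hybrid cas/129, with 129 and Castaneus homologs. Both were grown in N2B27 medium with 2i, a pair of kinase inhibitors, and LIF, a cytokine that sustains self-renewal. Values were matched to 75 of 86 labelled haploid and 63 of 96 labelled diploid S-phase cells. The paper reports karyotype changes in some diploid cells, most often loss of an X chromosome. Cells with aneuploidy were corrected by normalization and kept, and which of the matched cells they are is not known here. The labels name no genetic change and no further treatment, and they name no separate cultures. They give each cell a well name and name no plate, so a difference between the lines cannot be told apart from a difference in preparation. Each line counts as 1 sample, and no test was made. Standard deviations (SD) and exact Clopper-Pearson 95% intervals cover the sampling of cells only. The values come from DNA, so the identity of the cells could not be checked by marker expression, and read depth per cell is unknown.

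Early replication in S phase is a general property of gene-rich, accessible chromatin in the active compartment of the nucleus, and late replication of inactive chromatin. Oct4, the product of Pou5f1, binds DNA together with Sox2 at the enhancers of many stem cell genes, and Nanog stabilises the self-renewing state. Esrrb, Klf4 and Tfcp2l1 link the network to the LIF and 2i signals, Prdm14 represses genes of differentiation, and Zfp42, also known as Rex1, is the classical marker gene of the naive state.

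S-phase progress was the percentage of autosomal bins replicated in a cell. It ran from 24.6% to 88.6% in haploid cells (median 63.6%) and from 18.2% to 79.1% in diploid cells (median 56.6%). Below 40% there were 11 haploid and 4 diploid cells, so early S phase is thinly sampled, above all in the diploid line. The smoothed copy number score is centered within each cell, and the median haploid score of all 8 loci was lower above 60% progress than at 40 to 60%, when less of the rest of the genome had replicated. The scheduled position is the percentile of a locus in the mean score profile of all 138 cells, with 0 earliest and 100 latest. The state of a locus is replicated when more than 50% of its bins carry the replicated state. The line difference is the haploid minus the diploid mean score at matched progress.

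All 8 loci lay in the earlier 50% of the schedule, and 6 of the 8 in its earliest 25%, a count that was 4 in the schedule of haploid cells alone and 7 from binarized states. The pair scheduled earliest was Sox2, at position 1.74, and Esrrb, an orphan nuclear receptor gene, at 2.04. Prdm14 followed at 11.9, Pou5f1 at 18.02 and Tfcp2l1 at 18.15. Klf4, the gene of a zinc finger factor used in reprogramming, stood at 22.1 and Nanog at 29.7. Zfp42 was the latest of the 8 at 47.7, just inside the earlier 50%. The place of Sox2 depended on the schedule used. It stood at 0.49 in diploid cells alone, at 8.32 in haploid cells alone, and at 13.06 in a schedule from binarized states, where Esrrb (0.47), Prdm14 (3.23), Tfcp2l1 (4.15) and Pou5f1 (12.27) came before it. Tfcp2l1 stood at 9.09 in diploid cells alone and at 30.2 in haploid cells alone.

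The order of neighbours in this list is not sharp. The percentile of a locus within single cells had an SD of 13.3 (Sox2) to 20.1 (Tfcp2l1) percentile points over the 138 cells. The step between Nanog and Zfp42, 18 points, exceeded the SD of both loci, 16.8 and 16.6. The next largest step, from Prdm14 back to Esrrb, was 9.85 points, and every other step was smaller. The bins of Sox2 covered positions 1.51 to 2.09 and those of Esrrb 1.57 to 3.36, so these ranges overlapped. The bins of Pou5f1 lay between 16.5 and 19.8, inside the range of Tfcp2l1 (12.8 to 26.8) and of Klf4 (14.4 to 31.3).

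**Figure D1:**
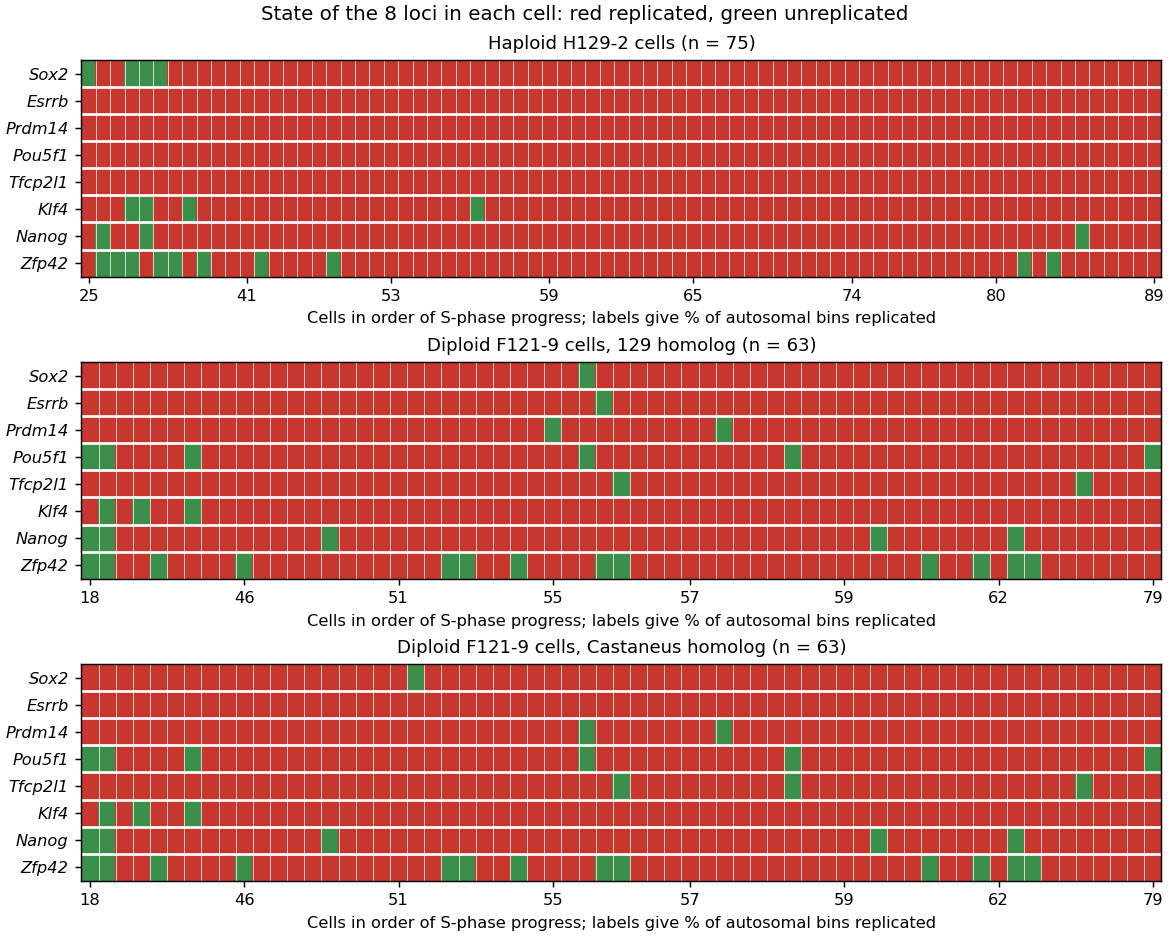
Replication state of the 8 loci (rows, earliest scheduled at the top) in every cell (columns, ordered by S-phase progress in %), for 75 haploid cells and for the 129 and Castaneus homologs of 63 diploid cells. Red marks replicated and green unreplicated; Zfp42 carries the most green, with 10 haploid cells and 13 diploid cells in which neither homolog had replicated.

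The loci sit in replication domains of very different length. Pou5f1 lies on chromosome 17 (35506018 to 35510772, plus strand) in a run of bins from the earlier 50% that was 14650 kb long. Runs here and below were followed over used bins only, so their lengths include unused bins that were passed over. Its window holds 11 other protein-coding genes, among them Tcf19, Cchcr1 and the histocompatibility genes H2-Q6, H2-Q7 and H2-Q10. Sox2 lies on chromosome 3 (34650405 to 34652461, plus strand) in a run of 4550 kb, and no other protein-coding gene of the annotation falls in its window. Nanog lies on chromosome 6 (122707489 to 122714633, plus strand) in a run of only 850 kb. Its window also holds Apobec1, Gdf3, Dppa3, Slc2a3, Foxj2 and C3ar1. The early run around Pou5f1 is thus many times longer than that around Nanog.

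Esrrb, on chromosome 12 (86361117 to 86521628, plus strand), lies in a run of 8850 kb, with Gpatch2l as the other gene of its window. Klf4, on chromosome 4 (55527143 to 55532466, minus strand), stands alone in its window, in a run of 3250 kb. Both Tfcp2l1 (118627945 to 118685168, plus strand) and Prdm14 (13113457 to 13127163, minus strand) are on chromosome 1. The first lies in a run of 2550 kb with Clasp1 in its window, and the second in a run of 1650 kb with Ncoa2 in its window. Zfp42, on chromosome 8 (43295063 to 43306980, minus strand), has the shortest run, 350 kb, with Triml2 as the other gene of its window.

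Zfp42 stood on a small local peak of early replication. Its earliest bin within 1 Mb, at position 46.5, was centered 26.02 kb from the middle of the gene, while the latest bin within the same distance was at 79.5. The earliest bin within 1 Mb was also near the gene at Klf4 (54.8 kb away, position 14.4) and Nanog (86.1 kb away, position 25.1). At Pou5f1, Tfcp2l1 and Prdm14 the earliest bin lay farther off, at 633, 518 and 305 kb. The authors' smoothing span is wider than every one of the 8 windows, so a peak cannot be assigned to one gene rather than its neighbours.

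**Figure D2:**
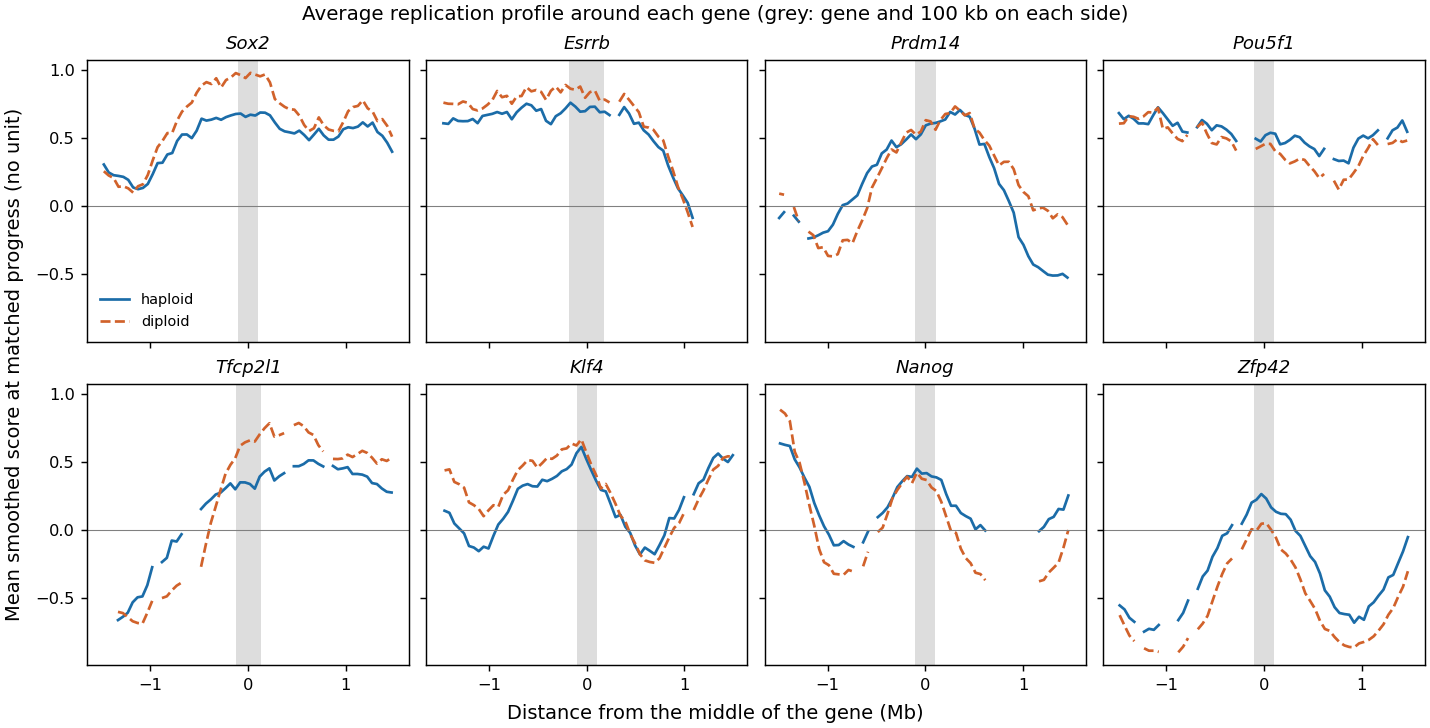
Mean smoothed score (y axis, no unit) at matched S-phase progress against the distance from the middle of each gene (x axis, Mb), for 39 haploid (blue, solid) and 58 diploid cells (orange, dashed). Grey marks the gene with 100 kb on each side and gaps are unused bins. Sox2 and Esrrb sit on broad plateaus, and Klf4, Nanog and Zfp42 on narrower peaks. Pou5f1 lies on a slope, with a diploid score of 0.72 at -1.08 Mb, 0.46 at the gene and 0.12 at 0.77 Mb.

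The windows were rich in G and C, a property the choice of genes did not use. The GC content was 47.9% at Pou5f1, 47.4% at Esrrb, 46.3% at Tfcp2l1, 45.4% at Klf4, 45.3% at Nanog, 44.96% at Sox2 and 44.7% at Prdm14. These 7 values lay between the 75th and the 90.6th percentile of all used bins, whose median was 41.4%. Zfp42, at 41.4%, lay at the 50.1th percentile, so the locus latest in the schedule also had the lowest GC content of the 8. With 8 loci this is a description. The part of GC content in their position was not tested.

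In haploid cells, 4 of the 8 loci were replicated in every cell sampled. All 8 were replicated in 60 of 75 cells, 7 in 11 cells, 6 in 2 cells and 5 in 2 cells. Pou5f1, Esrrb, Tfcp2l1 and Prdm14 were replicated in 75 of 75 cells (100%, interval 95.2% to 100%), down to the cell at 24.6% progress. Among bins, 22 of the 45 were replicated in every haploid cell, against 6.17% of all bins. The schedule was made from the same cells, so this count repeats the early position of the loci in another form.

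Among the central factors in haploid cells, Pou5f1 had no exception and Nanog had 3, and their intervals overlapped. The Pou5f1 score ran from 0.58 to 1.60 (median 0.95) in the 11 cells below 40% progress, from -0.10 to 1.05 (median 0.54) in the 25 cells at 40 to 60%, and from -0.56 to 1.17 (median 0.33) in the 39 later cells. Nanog was replicated in 72 of 75 cells (96%, 88.8% to 99.2%). Bins scheduled within 2.5 percentile points were replicated in a median of 96% of haploid cells for Pou5f1 and 90.7% for Nanog. The Nanog exceptions were cells at 27.4%, 29.1% and 83.99% progress, with scores of -0.15, -0.35 and -0.53. The last of these is far behind schedule, for 84.8% of chromosome 6 was replicated in that cell.

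Klf4 was replicated in 71 of 75 haploid cells (94.7%, 86.9% to 98.5%). It was unreplicated at 28.1%, 29.1%, 36.1% and 55.3% progress, where its score was -0.11, -0.59, -0.95 and -0.01. Between and around these cells others had it replicated, so no single point of progress separated the 2 states. Zfp42 was replicated in 65 of 75 haploid cells (86.7%, 76.8% to 93.4%). Bins scheduled within 2.5 percentile points of Zfp42 were replicated in a median of 73.3% of haploid cells, and 93.04% of those bins lay below the Zfp42 value.

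The states of Zfp42 were spread over S phase. It was unreplicated in 6 of the 11 haploid cells below 40% progress, in 2 of 25 at 40 to 60% and in 2 of 39 above 60%. The last 2 were cells at 80.8% and 83.3% progress, with Zfp42 scores of -0.52 and -0.59. The progress that best separated unreplicated from replicated cells was 34.6% (between cells at 30.6% and 38.6%), which left 7 cells on the wrong side. The median over bins of like schedule was 10 such cells, and over all used bins 6.

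**Figure D3:**
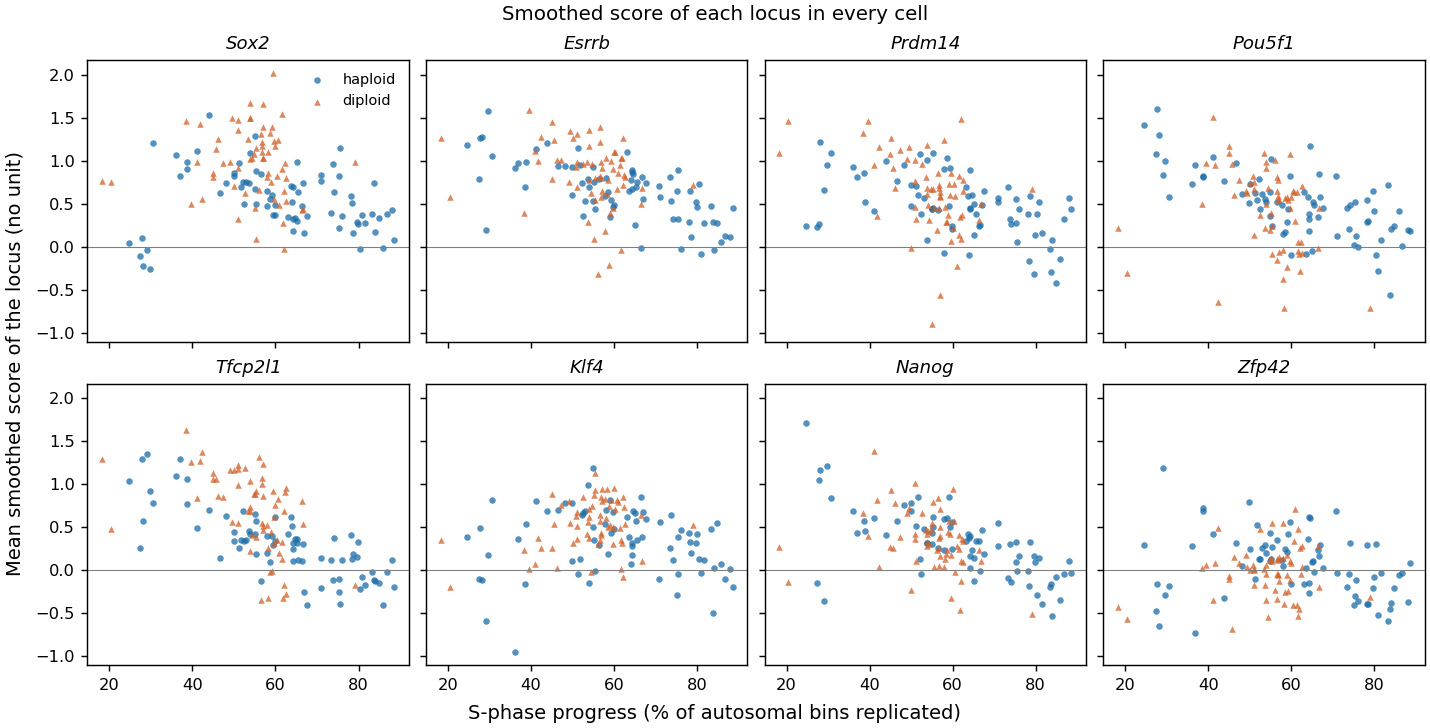
Mean smoothed score of each locus (y axis, no unit; the line marks 0) against S-phase progress (x axis, % of autosomal bins replicated), 1 point per cell, for 75 haploid (blue circles) and 63 diploid cells (orange triangles). The 6 haploid cells below 30% progress lie between -0.26 and 0.10 at Sox2, apart from the 5 at 30.6% to 38.8%, which lie between 0.82 and 1.21.

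At Sox2 the earliest haploid cells had lower scores than those just after them. Scheduled at 1.74 over all cells and at 8.32 in haploid cells alone, the locus was unreplicated in 4 of the 6 haploid cells below 30% progress, at 24.6%, 28.1%, 29.1% and 29.7%. The Sox2 scores of the 6 cells, in order of progress, were 0.04, -0.10, 0.10, -0.22, -0.03 and -0.26. In the 5 cells from 30.6% to 38.8% they were 1.21, 1.06, 0.82, 0.99 and 0.91, and all 5 were called replicated. The scores of the 2 sets did not overlap.

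This split at 30% progress was chosen after the values were seen. All 5 bins of Sox2 showed it, and no bin of the other 7 loci did. Of the 36414 bins with a score in all 11 cells, 0.302% were lower in every one of the first 6 cells than in any of the next 5. The opposite split was seen in 0.579% of bins, with 1 of the 35 member bins measured in all 11 cells. Over bins with missing scores as well, 2 Pou5f1 bins were higher in all of the first cells that had a score.

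The whole of chromosome 3 was behind the genome in these cells. It was 12.7% to 18.5% replicated in the 6 cells, where the average schedule would place it at 19.04% to 22.5%. In the next 5 cells it was 14.7% to 26.8% replicated, against 23.2% to 29.1% by schedule. With each chromosome centered on its own median, the Sox2 score was 0.25 to 0.56 in the first set and 1.35 to 1.90 in the second, which still did not overlap. By well name, 5 of the 6 cells and 4 of the 5 cells lay in row A, where the scores were -0.26 to 0.10 and 0.91 to 1.21.

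The same early cells had other members of the network replicated. Of the 11 haploid cells below 40% progress, all 11 had Pou5f1, Esrrb, Tfcp2l1 and Prdm14 replicated, 9 had Nanog, 8 had Klf4, 7 had Sox2 and 5 had Zfp42. In bins, 22 of the 45 were replicated in all 11 cells, against 8.94% of all bins. Above 40% progress Sox2 was replicated in every haploid cell. Its share over all haploid cells, 71 of 75 (94.7%, 86.9% to 98.5%), was lower than the median of 98.7% for bins of like schedule, and 8.52% of those bins lay lower still.

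Diploid cells showed a different set of exceptions. Both homologs of all 8 loci were replicated in 39 of 63 cells, and 7, 6, 5 and 4 loci in 16, 5, 2 and 1 cells. None of the 45 bins was replicated on both homologs of every diploid cell, against 0.904% of all bins. Esrrb came closest, with both homologs replicated in 62 of 63 cells (98.4%, 91.5% to 99.96%). Sox2 had 61 (96.8%, 89% to 99.6%), and it was replicated on both homologs at 18.2%, 20.4%, 38.4% and 39.6% progress, the 4 earliest diploid cells. The scores of Sox2 in these 4 cells were 0.76, 0.75, 1.46 and 0.49. Those at 18.2% and 20.4% lay above the scores of the 6 haploid cells below 30%. The score at 38.4% lay above, and that at 39.6% below, the range of the haploid cells from 30.6% to 38.8%, which was 0.82 to 1.21. The lines differ in ploidy as well as in strain, and these cannot be told apart.

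Pou5f1 was replicated on both homologs in 57 of 63 diploid cells (90.5%, 80.4% to 96.4%) and on neither in 6. Those cells stood at 18.2%, 20.4%, 42.3%, 55.4%, 58.3% and 79.1% progress. The last was the diploid cell farthest through S phase, with 79.2% of chromosome 17 replicated and a Pou5f1 score of -0.71. Bins of like schedule had a median of 94.4% of diploid homologs replicated, and 13.7% of them lay below Pou5f1. Nanog was replicated on both homologs in 58 cells (92.1%, 82.4% to 97.4%), with neither replicated at 18.2%, 20.4%, 50.1%, 59.7% and 61.7%.

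Klf4, Tfcp2l1 and Prdm14 each had both homologs replicated in 60 of 63 diploid cells (95.2%, 86.7% to 99.0%). They were replicated on 95.2%, 96.0% and 96.8% of diploid homologs. The medians for bins of like schedule were close, at 93.7%, 94.4% and 95.2%. Klf4 was unreplicated on both at 20.4%, 39.6% and 42.3% progress, where its score was -0.19, 0.01 and 0.26. The cell at 42.3% also lacked Pou5f1, which had a score of -0.64 there. Tfcp2l1 was unreplicated on both at 56.6% and 62.5%, and Prdm14 at 57.03%, all past the middle of S phase.

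Zfp42 was again the least often replicated, with both homologs replicated in 50 of 63 diploid cells (79.4%, 67.3% to 88.5%) and neither in 13. It was unreplicated in 2 of 4 cells below 40%, in 7 of 45 at 40 to 60% and in 4 of 14 above 60%. The best separating point lay at 29.4% (between cells at 20.4% and 38.4%) and left 11 cells on the wrong side. Bins of like schedule left a median of 13.5, and all used bins 4.5. Their median share of replicated homologs was 69.05%, below Zfp42 in 86.4% of them. In both lines, then, Zfp42 by the state of most of its bins was replicated in more cells than most single bins of its scheduled position. With every bin of the locus required, Zfp42 was replicated in 82.7% of haploid cells and on 69.8% of diploid homologs. The diploid value is then close to the median of 69.05% for bins of like schedule.

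Within single genomes the order of the loci differed from pair to pair and between the lines. Pou5f1 was replicated without Sox2 in 4 haploid cells and Sox2 without Pou5f1 in none, whereas 11 diploid homologs had Sox2 alone and 1 had Pou5f1 alone. Zfp42 was unreplicated in 10 haploid cells that had Pou5f1, and no cell had the reverse. Against Nanog the counts were 9 cells with Nanog alone and 2 with Zfp42 alone, and against Sox2 they were 8 and 2. Sox2 and Klf4 were each found alone in 2 haploid cells. On the 126 diploid homologs, 22 had Pou5f1 without Zfp42 and 8 had Zfp42 without Pou5f1. Sox2 was alone on 26 homologs and Zfp42 on 2. Nearly all segments carry 1 state for both homologs of a cell, so these homolog counts are not independent.

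The homologs of a diploid cell were almost always called alike at these loci. Among 504 pairs of a cell and a locus, 6 differed (1.19%), 3 with the 129 homolog replicated first and 3 with the Castaneus homolog. The mean over all used bins was 0.870%, made up of 0.535% for 129 and 0.335% for Castaneus. At least 1 diploid cell was asynchronous in 21 of the 45 bins, against 40.4% of all bins, a share near the background. The authors gave homologs different states only where enough parsed reads spoke for it, so a like state is partly a default.

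The 6 events fell in 5 cells and at 4 loci. Sox2 was replicated on the 129 homolog alone at 52.6% progress and on the Castaneus homolog alone at 55.4%. The same cell at 55.4% had the reverse at Prdm14, with 129 alone replicated, and neither homolog of Pou5f1. Prdm14 was replicated on Castaneus alone at 55.1%, Esrrb on Castaneus alone at 56.1% and Tfcp2l1 on 129 alone at 58.3%. No asynchronous cell was called at Pou5f1, Nanog, Klf4 or Zfp42. These 5 cells had 0.508% to 8.58% of their bins asynchronous, and the last value was the highest of any cell, against a median cell of 0.264%. The part of that cell-wide rate in the events was not tested.

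At matched progress no locus passed the limit for a line difference. The comparison used 39 haploid and 58 diploid cells from 40% to 70% progress, in strata of 10 percentage points. No bin of the 45 differed by 0.5 or more in score, against 1.65% of all bins. The mean score was higher in diploid cells at 5 of the 8 loci, which became 1 of 8 with binarized states, and in 20311 of the 45112 bins. The median difference over the 8 loci was -0.03, against 0.02 over all used bins.

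Tfcp2l1 and Sox2 stood lowest in haploid relative to diploid cells. The Tfcp2l1 score at matched progress ran from -0.40 to 0.70 in haploid cells, with a mean of 0.34 ± 0.24 (SD, n = 39). In diploid cells it ran from -0.35 to 1.37, with a mean of 0.63 ± 0.45 (SD, n = 58). The difference of -0.30 lay at the 5.57th percentile of all used bins, and the 2 ranges overlapped. On the scale of the percentile of the score within a cell, the difference at matched progress was -13.01 points. For Sox2 the mean was 0.67 ± 0.29 in haploid cells (0.16 to 1.53) and 0.96 ± 0.42 in diploid cells (-0.02 to 2.02), a difference of -0.29 at the 5.96th percentile. Chromosome 3 was also less replicated than the genome, with a median difference of -12.4 percentage points in haploid and -5.95 in diploid cells. The schedule itself placed chromosome 3 below the genome, at 19.04% in the haploid cell at 24.6% progress. These differences thus do not measure a lag behind schedule. With chromosomes centered, the Sox2 difference was -0.10 and that of Tfcp2l1 -0.23. In binarized states the direction turned, with 1.54 and 4.33 percentage points more haploid than diploid copies replicated.

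Zfp42 lay on the other side. Its mean score at matched progress was 0.20 ± 0.25 (SD, n = 39) in haploid cells, from -0.32 to 0.79, and 0.0043 ± 0.29 (SD, n = 58) in diploid cells, from -0.68 to 0.72. The difference of 0.20 lay at the 83.5th percentile of all used bins. It was smaller than either SD, which is the unweighted spread of single cells and not the error of the stratum-weighted mean. In states, 15.3 percentage points more haploid than diploid copies had Zfp42 replicated at matched progress. For the other 5 loci the difference in score was 0.08 at Pou5f1, 0.06 at Nanog, -0.01 at Prdm14, -0.05 at Klf4 and -0.11 at Esrrb. Those of Pou5f1 and Prdm14 changed sign with chromosomes centered, to -0.09 and 0.06.

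**Figure D4:**
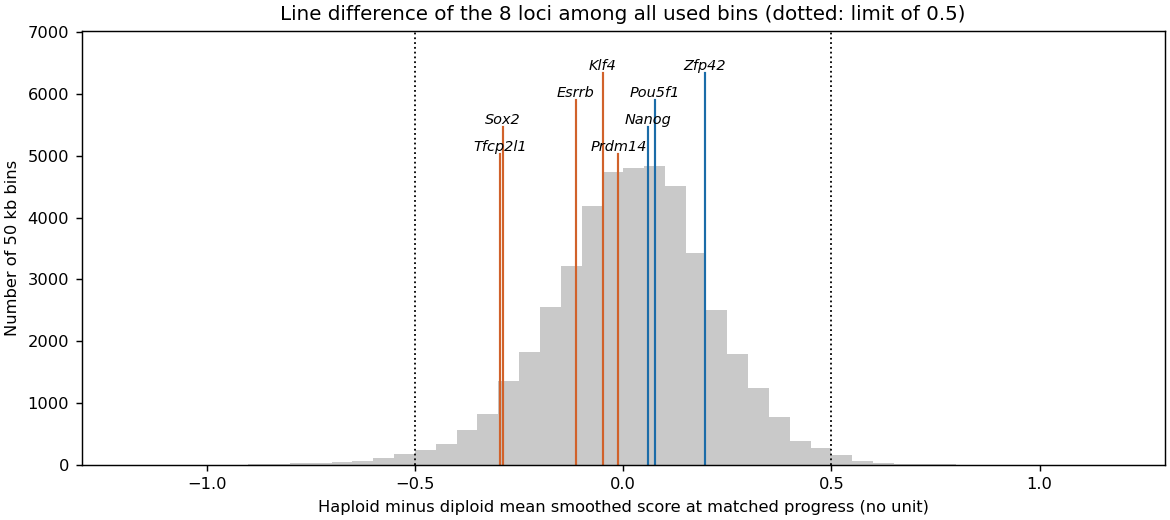
Number of 50 kb bins (y axis) by the haploid minus diploid mean smoothed score at matched progress (x axis, no unit), with the 8 loci as vertical lines (orange below 0, blue above) and the limit of 0.5 dotted. Loci range from -0.30 at Tfcp2l1 to 0.20 at Zfp42, and 1.65% of all bins lie at or beyond the limits.

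Other genes of the pluripotency network were also early. Their list and those below were chosen with earlier results of these data known. It holds Dppa3, which lies in the Nanog window, and no X-linked gene. Of 25 such genes, among them receptors and kinases of LIF signalling, partners of the core factors and DNA demethylases, 20 lay in the earliest 25% and all 25 in the earlier 50%, with a median position of 13.7. The earliest was Fgf4, a growth factor gene under Oct4 and Sox2 control, at 3.14, and the latest Tet2, which oxidises methylated cytosine, at 35.3. The median gene of this list was replicated in 97.3% of haploid cells and on 94.4% of diploid homologs, against 98% and 95.6% for the 8 loci and 69.3% and 64.3% for the median bin. Stat3, Tdgf1 and Lin28a were replicated in every haploid cell. Zfp42 was thus later than all 25 of these genes.

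Genes of later states were spread wider. The 7 autosomal formative and primed genes had a median position of 35.7, with 3 in the earliest 25% and 5 in the earlier 50%. Dnmt3b, a DNA methyltransferase gene, was earliest at 10.7 and Cdh2, the N-cadherin gene, latest at 80.6. Of 8 neural genes, 3 lay in the earliest 25% and 4 in the earlier 50%, and Sox1 was earliest at 3.80. Of 8 genes of mesoderm, endoderm and trophoblast, 3 and 6 did, from Cdx2 at 6.65 to Foxa2 at 71.9. No gene of these lists had a bin with a line difference of 0.5 or more.

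**Figure D5:**
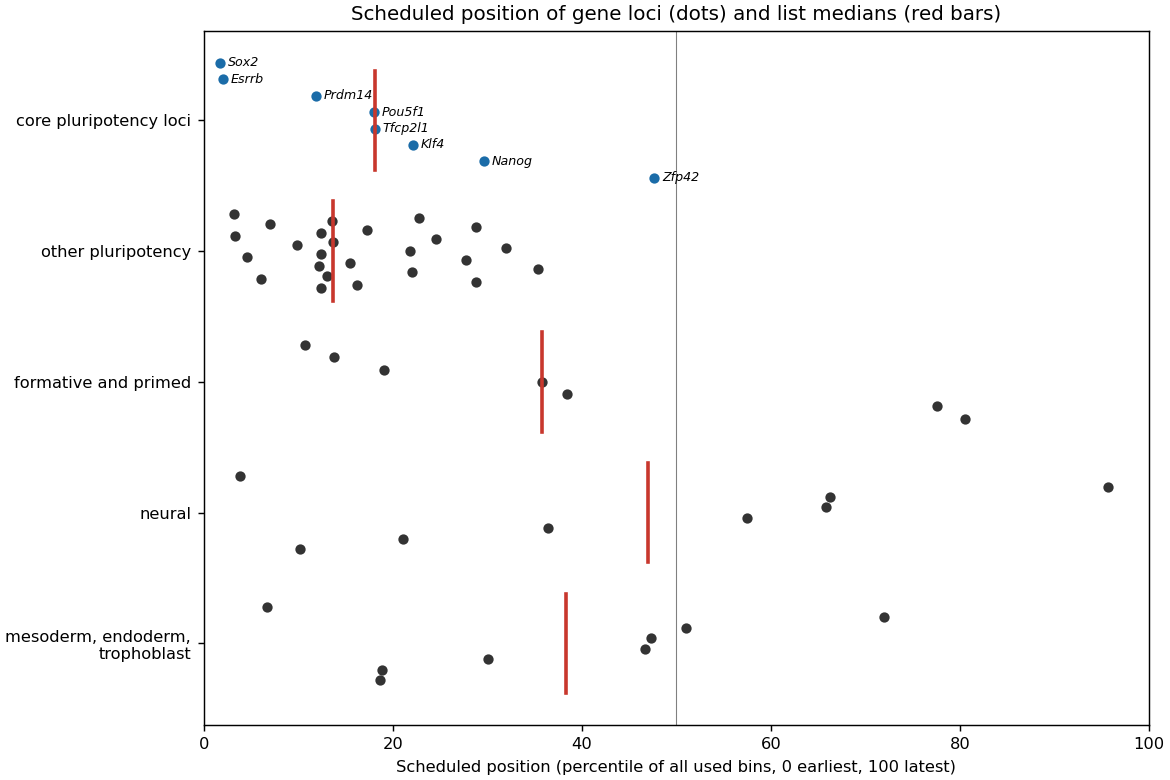
Scheduled position (x axis, percentile of all used bins, 0 earliest) of the 8 core loci (blue, named) and of 4 other gene lists (black, 1 dot per gene, offset vertically for display), with red bars at list medians. All 8 core loci and all 25 other pluripotency genes lie left of 50, and each of the other 3 lists has genes on both sides of 50.

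The genes whose pattern over cells was most like that of a member were to be named for loci replicated in 20% to 80% of cells, and no locus met this range. Zfp42, at 83.3%, was nearest and was taken after this was seen. Among 18354 protein-coding genes on other chromosomes, the start bin of Extl3 had the state of Zfp42 in the most genome copies, 175 of 201 (87.1%). Arhgef4 and Tomm7 were among 19 genes that tied at 174 copies. Extl3 is scheduled at 9.99, far earlier than Zfp42. Zfp42 was replicated in 165 of the 201 copies (82.1%), the match that a gene replicated in every copy would have, so the measure is near its ceiling and separates genes little. The median gene matched in 80.1% of copies.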

How the data were processed

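Single S-phase mESCs of the lines H129-2 and F121-9 were profiled by low-coverage whole genome sequencing. The authors aligned the reads to mm10 (Bowtie 2), removed duplicates, counted reads in 50 kb windows, divided by G1 and G2 control cells, masked extreme windows, and centered, scaled and median smoothed each cell. What they deposited after smoothing is a score with no unit. The authors then segmented each profile and binarized it, and the deposited state is 0 or 1. Homologs received different states only with enough parsed reads. The submitters' processing notes also name SAMtools and bedtools.

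Cells were matched by well name. A further 24 columns, of 8 diploid cells, matched no label and were not used. A bin entered the analysis if no cell lacked its state and scores were present in 50% or more of the haploid and of the diploid cells. At the 8 loci 0.121% (Zfp42) to 3.48% (Prdm14) of scores were missing, against 2.10% over all used bins. Genes came from GENCODE M21. The 8 genes and all gene lists were chosen with earlier results of these data known. The 8 genes were always named, and other lists give their earliest and latest gene, except where an item is not reported here. Each cell is 1 GEO sample and no culture is named, so no test was made. The line difference was averaged over strata of 10 percentage points with at least 3 cells of each line, weighted by cell numbers, and called at 0.5. Computations used Python 3.11.15, numpy 2.4.6, pandas 2.3.3 and scipy 1.17.1, and were tested on simulated data. Alternatives changed the window, the centering, the measure and the cells. Depth per cell is unknown, so counting error has no interval. No sequence is shown, because 50 kb copy numbers do not bear on single bases.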

Additional observations from a re-analysis of the deposited data

How the results depend on the processing

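Across 319 alternative values for 43 results, 300 of them stayed within the spread between cells or within 1.5 times the reported count, 19 moved further, and no locus had a line difference past the limit to begin with. Some of the 300 could not move, such as diploid percentages when only haploid cells were left out, so the count overstates stability. The scheduled positions stayed within the SD between single cells, 13.3 to 20.1 points, which is wide: Sox2 ran from 0.17 (chromosomes centered) to 13.06 (binarized states), Tfcp2l1 from 4.15 (binarized states) to 30.2 (haploid cells alone) and Prdm14 from 3.23 to 14.2. The median percentage of haploid cells with a locus replicated, 98%, was 84.7% when a smoothed score above 0 stood for replication, and 100% without the 6 haploid cells below 30% progress, an alternative chosen after seeing the data. With the score above 0, Zfp42 was replicated in 56% of haploid cells and on 53.97% of diploid homologs, Nanog in 74.7% and Tfcp2l1 in 76% of haploid cells. The count of loci higher in diploid cells, 5 of 8, was 1 with binarized states, and 4 with strata of 5 percentage points or with cells at 40 to 60% alone. The causes were not tested. The score difference at Zfp42 ran from 0.12 to 0.23 over the alternatives on the score scale. No paired analysis was possible because each sample is a single cell and well names do not pair cells of the lines. The limits are no named cultures or plates, 4 diploid cells below 40% progress, unknown read depth, and smoothing wider than the loci. Of all diploid pairs, 3 had profiles correlated at 0.924 to 0.934, against at most 0.894 for other pairs and 0.775 among haploid cells. Leaving out 1 cell of each of the 3 pairs moved no result past its bound. All 3 pairs are diploid, so the haploid percentages could not move.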

Other observations

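A pluripotency gene and a gene of the formative list on the X chromosome were measured outside the comparisons above, which used autosomes. Nr0b1, the gene of a nuclear receptor that interacts with Oct4, was chosen after the autosomal values were seen. Placed among 47812 bins with the X chromosome, the locus of Nr0b1 stood at position 59.7 and that of Sox3 at 51.8. Nr0b1 was replicated in 37 of 75 haploid cells and Sox3 in 39. In diploid cells both homologs were replicated in 33 of 63 cells at Nr0b1 and 44 at Sox3, and neither in 30 and 19. These positions are on a scale that includes the X chromosome and are not those of the autosomal scale above.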
